A study of Drosophila melanogaster with 7 samples.

Results

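Many fly genes are copied into several isoforms, transcripts that differ in where they start, which exons they keep or where they end. The use of these isoforms in nuclei of tagged neurons of the adult Drosophila head was compared with that in whole dissected brain. The quantity is the share of an isoform in the summed FPKM (a read-based level corrected for transcript length and library size) of all isoforms of its gene in a library, so a gene that is merely more or less abundant keeps its shares. Genes were taken where at least 2 isoforms reached 1 FPKM in at least 2 libraries, which held for 2831 of the 15271 fly genes listed by isoform. An isoform found only in whole brain, which has a single library, could not count towards this rule. Of these, 343 had an isoform without a value and 106 had a summed FPKM under 1 in a library. The remaining 2382 genes, with 8677 isoforms, were tested. The gene closest to the entry rule from inside was Bx, by Bx-RB at 1.00 FPKM.

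Splicing removes introns in the nucleus, largely while a gene is still being copied, and finished mRNA is exported to the cytoplasm. Neurons are known for extensive alternative splicing, alternative first exons and lengthened 3' ends, much of it set by RNA-binding proteins of the Elav, Bruno and Rbfox families. Isoforms of one gene can encode different proteins or the same protein with other untranslated ends, and some keep an intron that interrupts the reading frame.

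Nuclei were taken from frozen adult heads of 3 GAL4 lines, each driving the nuclear-envelope tag unc84-GFP. R57C10-GAL4 is described as covering all mature neurons (1 library), OK107-GAL4 mainly Kenyon cells of the mushroom body (2 libraries, a and b), and Tdc2-GAL4 mainly octopaminergic neurons (2 libraries, a and b). The sixth library is from whole dissected adult brain, described as all its cells. Genotype of the brain donors, sex and exact age are not given in the labels, and heads were pooled in large numbers for the nuclei. The labels call the RNA of all samples nuclear, though whole brain was not taken from tagged nuclei. How the RNA was isolated, head against brain, and tagged neurons against all cells all separate the 5 libraries from the sixth, so these differences cannot be told apart. Likewise fewer cells of a type and less RNA per cell cannot be told apart.

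Levels of defining genes, as isoforms summed per gene, followed the labels for the 2 narrow lines. Tdc2, which makes tyramine, the precursor of octopamine, reached 110 and 90.3 FPKM in its own line against 2.68 to 3.01 FPKM in the other libraries. The eye and mushroom body factor ey stood at 248 and 259 FPKM in the OK107 libraries and at 10.2 to 35.9 FPKM elsewhere. The neuronal gene elav was present in all, at 125 to 269 FPKM in tagged nuclei and 154 FPKM in whole brain. The glial gene repo was highest in whole brain, at 21.3 FPKM against 1.57 to 11.7 FPKM. The photoreceptor opsin ninaE was lowest there, at 189 FPKM against 469 to 4830 FPKM. No read totals were given; the spacing of low values implied roughly 23.1 to 36.7 M reads in the tagged libraries and 56.4 M in whole brain, with 58.1% to 66.2% of values within 0.2 of a whole read. Column names call every library brain, although the labels give head for the tagged ones, and bear 1 of 2 date tags, the later one shared by R57C10, Tdc2 b and whole brain.

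Isoform use in whole brain stood apart from that of every tagged library. The difference between a pair of libraries was taken, for each gene, as the percentage of its FPKM that would have to pass from one isoform to another to make the shares equal. Its median over the 2382 genes was 6.42% between OK107 a and b and 8.53% between Tdc2 a and b. Between tagged libraries of different lines it ran from 9.29% to 12.0%. Whole brain differed from the tagged libraries by 13.7% (Tdc2 a), 14.2% (Tdc2 b), 15.9% (OK107 a), 16.4% (OK107 b) and 17.1% (R57C10). All 5 distances to whole brain thus exceeded all 10 distances among tagged libraries, and the line that covers the neurons most broadly was the farthest from it. Between libraries of the later date tag alone, R57C10 and Tdc2 b differed by 9.29%, and each was farther from whole brain. The dominant isoform, the one with the highest share, differed in 311 to 528 genes between tagged libraries and in 560 to 683 genes between a tagged library and whole brain.

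**Figure D1:**
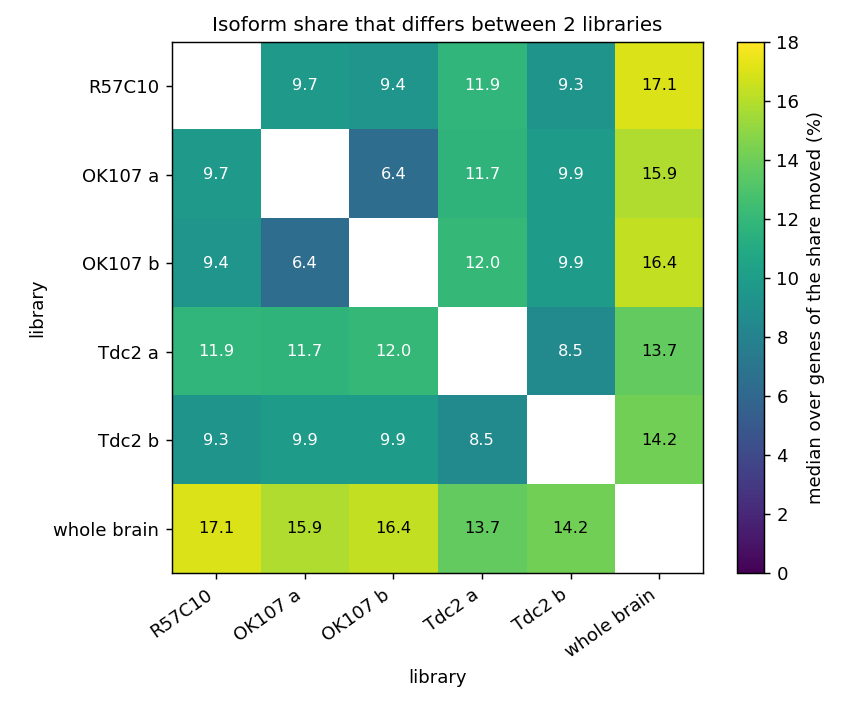
Isoform share that differs between each pair of the 6 libraries (rows and columns), as the median over 2382 genes of the percentage of a gene's FPKM on other isoforms. The row and column of whole brain hold the highest values, 13.7% to 17.1%, and the OK107 pair the lowest, 6.42%.

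The shares of the 5 tagged libraries as one arm were tested against whole brain with limma on arcsine square-root shares, with Simes p-values per gene and Benjamini-Hochberg adjustment over all tested genes. Of the 2382 genes, 207 passed at an adjusted p under 0.05 (8.69%), and 660 had an unadjusted p under 0.05. The isoform with the largest share difference was higher in whole brain in 114 of the called genes and lower in 93. Its difference had a median of 28.0 percentage points in called genes and 13.1 points in all tested genes. In 199 of the 207 its share in whole brain lay outside the range of the 5 tagged libraries, as it did in 66% of all tested genes. A difference of at least 25 points was found in 507 genes, of which 393 did not pass. Called and tested genes differed little in amount. The median absolute log2 difference of summed FPKM between whole brain and tagged nuclei was 0.57 in called and 0.55 in tested genes.

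The count depends on the single whole-brain library and on isoforms whose tagged shares barely vary. In 65 called genes the most significant isoform varied by under 0.01 points among the tagged libraries. Without such isoforms 41 genes passed. With only isoforms of at least 1 FPKM in 2 libraries none passed by limma, with 594 at an unadjusted p under 0.05. This setting is one-sided, since an isoform found only in the single whole-brain library cannot meet it. Isoforms such as Nos-RA and Rm62-RD are thus removed by rule, while isoforms found only in tagged nuclei can stay. In 43 of the 51 genes named below the isoform with the largest share difference met this rule, yet all 43 lost the call. None passed either when only the 3 libraries of the later date tag were used, with 395 at an unadjusted p under 0.05. Without R57C10 121 genes passed, without OK107 a 95, without OK107 b 88, without Tdc2 a 185 and without Tdc2 b 109. Of the 51 genes named below as called, 20, 31, 35, 11 and 29 lost the call in these 5 fits, and 16 kept it in each. These 16 were GluClalpha, Itp-r83A, Mhc, Nos, Rm62, Sema-2a, betaTub56D, dsx, iPLA2-VIA, if, moody, msi, nmo, rdgB, tomosyn and up. Without the isoforms that barely varied among tagged libraries 11 of the 51 kept the call: CG32581, CG6454, Itp-r83A, Rm62, bru-2, cu, dsx, iPLA2-VIA, moody, nrm and tomosyn. Only 6 of the 16 were among them, and the other 10 lost it. An adjusted p belongs to a gene, and in 30 of the 51 the most significant isoform was not the one with the largest share difference. An exact permutation test of any single share, 5 libraries against 1, cannot go below a two-sided p of 0.167.

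In 181 of the 2382 genes (7.6%) all 5 tagged libraries had one dominant isoform and whole brain another. Among the called genes this held for 49, or 23.7%, which is no independent support since the same shares made the calls. One dominant isoform in all 5 tagged libraries was found in 1527 genes.

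**Figure D2:**
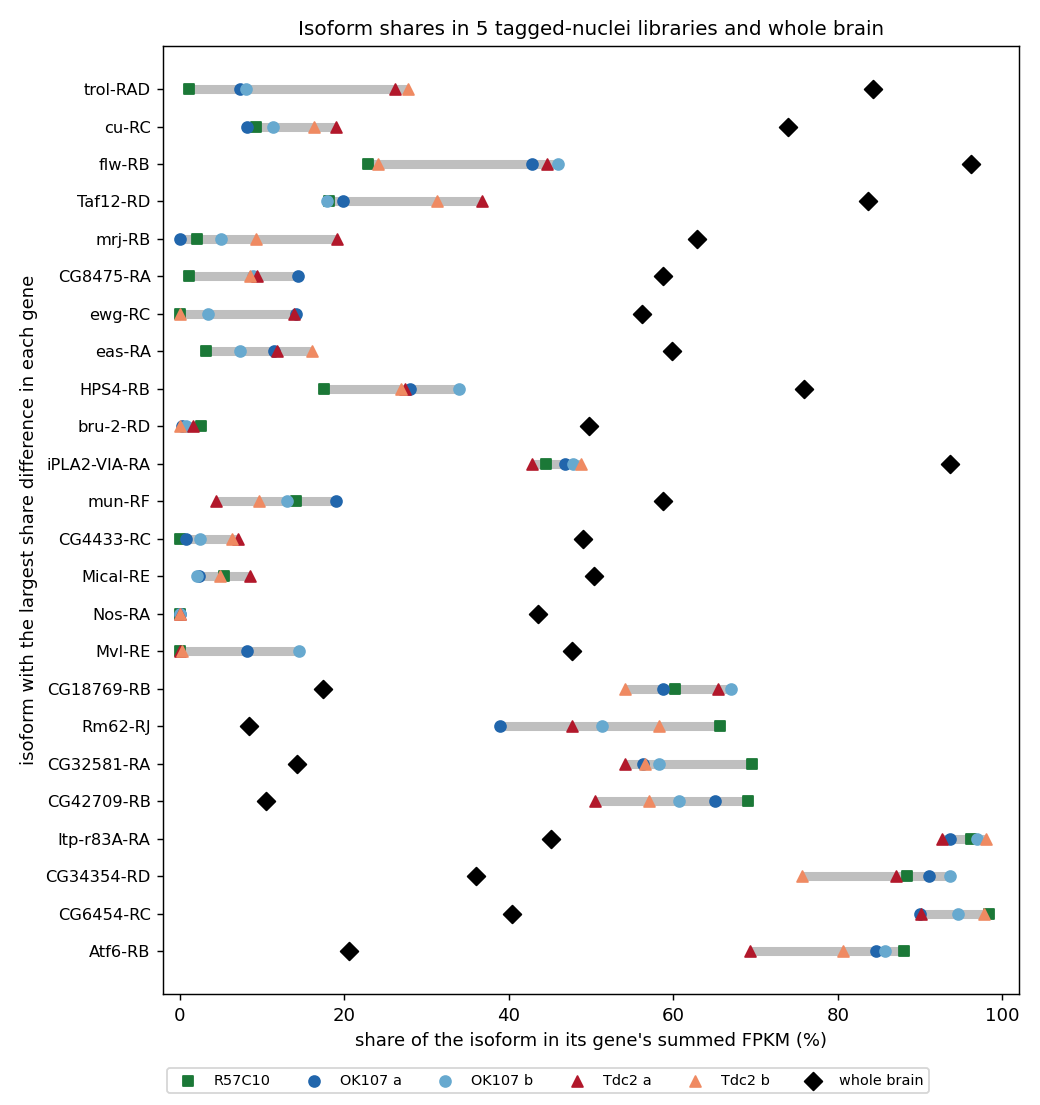
Share of summed FPKM (x axis, %) of the isoform with the largest difference in each of the 24 called genes with the largest differences and at least 10 FPKM in every library; symbols are libraries and grey bars the range of the 5 tagged ones. Genes were chosen with whole brain (black diamonds) outside the grey bar, so that position is set by the choice. Whole brain runs from flw-RB at 96.2% to Rm62-RJ at 8.43%.

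Isoforms that hold an intron had higher shares in tagged nuclei than in whole brain. Exon structures were taken from same-named transcripts of a later annotation, which matched 89.9% of the tested isoforms. An isoform was counted as holding an intron where one of its exons spans an intron of another isoform of the gene. Of the genes with every isoform matched, 509 had both kinds. The summed share of the intron-holding isoforms had a median over these genes of 41.8% in R57C10, 40.1% and 42.1% in OK107 a and b, 33.3% and 36.7% in Tdc2 a and b, and 24.6% in whole brain. Every tagged library was thus above whole brain, with the Tdc2 pair nearest to it. The mean share was 43.0% ± 2.41 (SD over the 5 tagged libraries) and 34.7% in whole brain. In 223 of the 509 genes (43.8%) the whole-brain share was below all 5 tagged libraries and in 49 (9.63%) above all 5. Over all single isoforms of tested genes these percentages were 26.6% below and 24.4% above. Their nearness is partly built in, since the shares of a gene add up to a fixed total. Single shares also differ in kind from summed shares, so they are no matched background for the 509 genes. The share was at least 25 points lower in whole brain in 72 genes and at least 25 points higher in 10. With only the tagged libraries of the later date tag, the mean difference was -8.64 points, against -8.23 points with all 5. No test across genes was made, since genes of one library are not replicates.

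**Figure D3:**
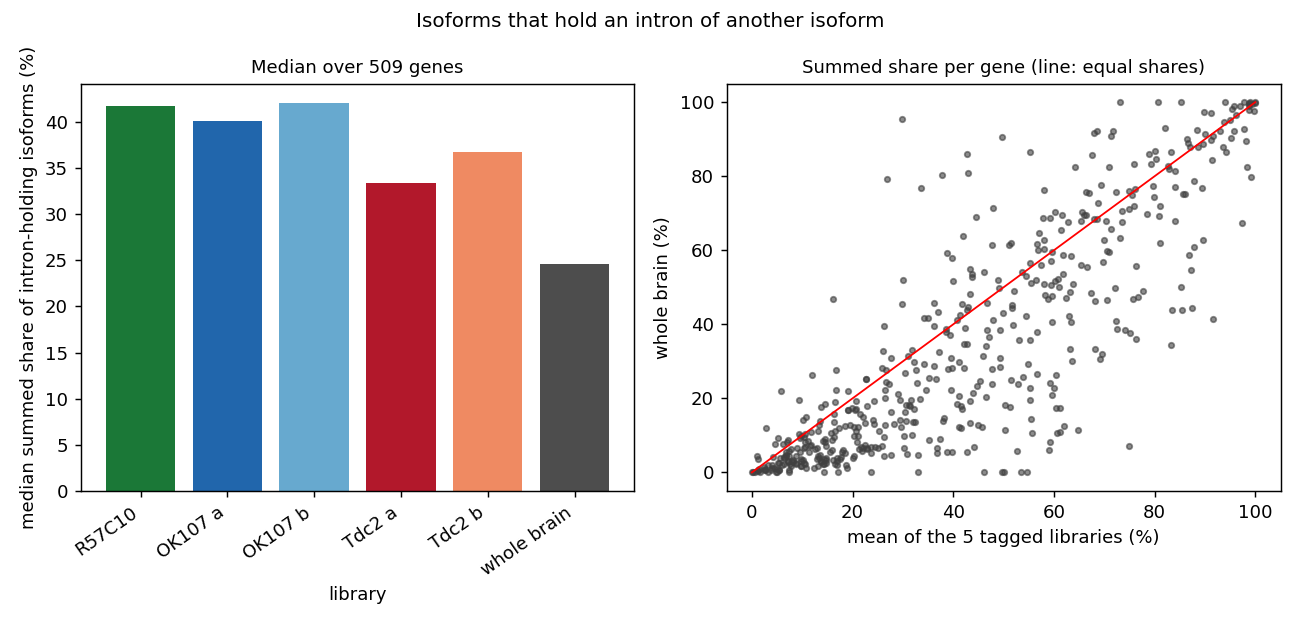
Summed share of intron-holding isoforms (%) in 509 genes. Left, the median per library, 33.3% to 42.1% in tagged nuclei and 24.6% in whole brain; right, each gene as a point, mean of the 5 tagged libraries against whole brain, with more points below the line of equality than above it.

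Several of the largest called differences were of this kind. In eas, an ethanolamine kinase gene whose mutants are seizure-prone, the intron-holding eas-RF made up 90.6% of the FPKM of the gene in R57C10, 78.4% and 83.7% in OK107 a and b, 80.5% and 82.7% in Tdc2 a and b, and 34.4% in whole brain. The spliced eas-RA made up 3.23% to 16.1% in tagged nuclei, against 59.8% in whole brain, so the order of the isoforms was the opposite in whole brain (adjusted p = 0.0431, limma). The same-named eas-RF has a coding length of 513 bases, against 1485 bases in eas-RA. In Taf12, a subunit of the general transcription factor TFIID, the intron-holding Taf12-RA made up 76.3% of the FPKM of the gene in R57C10, 51.8% and 68.2% in OK107 a and b, 52.3% and 60.99% in Tdc2 a and b, and 12.6% in whole brain. Here Taf12-RD took its place, with a share of 17.9% to 36.8% in tagged nuclei and 83.7% in whole brain (adjusted p = 0.0431, limma). In CG8475 the intron-holding CG8475-RB had shares between 85.7% and 98.9% in the 5 tagged libraries and of 41.3% in whole brain (adjusted p = 0.0334, limma). Its coding length is 1518 bases, against 3279 bases in CG8475-RA. In CG18769, known now as MCU, the pore of the mitochondrial calcium uniporter, the intron-holding CG18769-RB had a share of 54.2% to 66.96% in tagged nuclei and 17.4% in whole brain (adjusted p = 0.0447, limma). In this gene the intron lies outside the coding part, and both isoforms have a coding length of 1098 bases. In Mvl, an NRAMP-type metal transporter, the intron-holding Mvl-RD made up 40.3% to 49.6% in tagged nuclei, against 12.3% in whole brain and Mvl-RE had shares between 0% and 14.5% in the 5 tagged libraries and of 47.7% in whole brain. The most significant isoform was Mvl-RB, at 0% to 1.03% in tagged nuclei and 12.2% in whole brain (adjusted p of the gene = 0.0315, limma).

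Differences of this kind were also present in genes that did not pass. The summed share of intron-holding isoforms in lolal, a BTB-domain chromatin factor, was 47.9% to 73.8% in tagged nuclei and 10.9% in whole brain. That of drpr, the engulfment receptor Draper of glia, was 54.7% to 72.8% and 17.5%. In eRF1, the translation termination factor, it was 43.4% to 82.9% and 10.6%. These 3 genes, named after their values were seen, had adjusted p-values of 0.0603, 0.0524 and 0.225 (limma).

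The exchanged isoforms also differed in length. For each gene the isoform that rose most in whole brain was set against the one that fell most. Both had a matched structure in 1988 tested genes, 169 of them called. The isoform higher in whole brain was the shorter one in 60.7% of the tested and 72.8% of the called genes, and the longer one in 38.8% and 26.0%. The tagged-higher isoform held an intron of the other in 285 tested genes (14.3% of pairs), and the brain-higher isoform in 98 (4.93%). Among called genes these numbers were 18 (10.7%) and 3 (1.78%), so both were less frequent there than among all tested genes. Starts lay over 100 bases apart in 41.6% of tested and 47.9% of called pairs, ends in 30.7% and 30.8%. The same coding sequence was shared by both isoforms in 38.2% of tested and 30.2% of called pairs. The selection of called genes used the shares, so the called percentages are a description only.

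Among the genes with the largest differences were a calcium channel, a phospholipase and a phosphatase. Itp-r83A encodes the IP3 receptor, the calcium release channel of the endoplasmic reticulum. Itp-r83A-RB made up 3.77% of the FPKM of the gene in R57C10, 6.37% and 3.03% in OK107 a and b, 7.36% and 1.94% in Tdc2 a and b, and 54.8% in whole brain. In the tagged libraries it was a minor form (4.49% ± 2.29, SD, n = 5), and in whole brain it was the dominant one (adjusted p = 0.00546, limma). The later annotation gives it 20 exons against 19 in Itp-r83A-RA, and a coding length of 8511 bases against 8484. In iPLA2-VIA, a calcium-independent phospholipase, iPLA2-VIA-RA made up 44.5% of the FPKM of the gene in R57C10, 46.9% and 47.8% in OK107 a and b, 42.9% and 48.8% in Tdc2 a and b, and 93.6% in whole brain. The tagged libraries lay close together (46.2% ± 2.43, SD, n = 5), and the isoform made up nearly the whole of the gene in brain (adjusted p = 0.00397, limma). Its counterpart iPLA2-VIA-RC, which holds an intron of another isoform of the gene, had a share of 49.2% to 57.1% in tagged nuclei and 5.80% in whole brain. In flw, the beta-type catalytic subunit of protein phosphatase PP1, flw-RB made up 22.8% of the FPKM of the gene in R57C10, 42.9% and 45.95% in OK107 a and b, 44.6% and 24.1% in Tdc2 a and b, and 96.2% in whole brain. R57C10 and Tdc2 b, of the later date tag, had lower shares than the other tagged libraries, so the tagged values split by date tag. Whole brain bears the later tag too, and no tagged library approached its value (adjusted p = 0.0294, limma). The coding length of flw-RB is 990 bases and that of flw-RA 1383 bases, and summed flw levels were 92.8 to 113 FPKM in tagged nuclei and 239 FPKM in whole brain.

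Nos, the nitric oxide synthase gene, was present in all libraries, at 14.5 to 26.9 FPKM in tagged nuclei and 13.8 FPKM in whole brain. Nos-RA was at a share of 0% in each tagged library to 2 decimals and at 43.6% in whole brain (adjusted p = 0.000234, limma). In place of it Nos-RG made up 47.4% to 57.8% in tagged nuclei, against 16.3% in whole brain. Pka-C1, the catalytic subunit of cAMP-dependent protein kinase, had Pka-C1-RB at a share of 62.5% to 68.2% in tagged nuclei and 87.6% in whole brain (adjusted p = 0.0295, limma). Both of its isoforms have the same coding length, 1059 bases. Summed Pka-C1 levels were highest in the OK107 pair, 662 and 615 FPKM, whose Pka-C1-RB shares lay inside the range of the other lines.

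**Figure D4:**
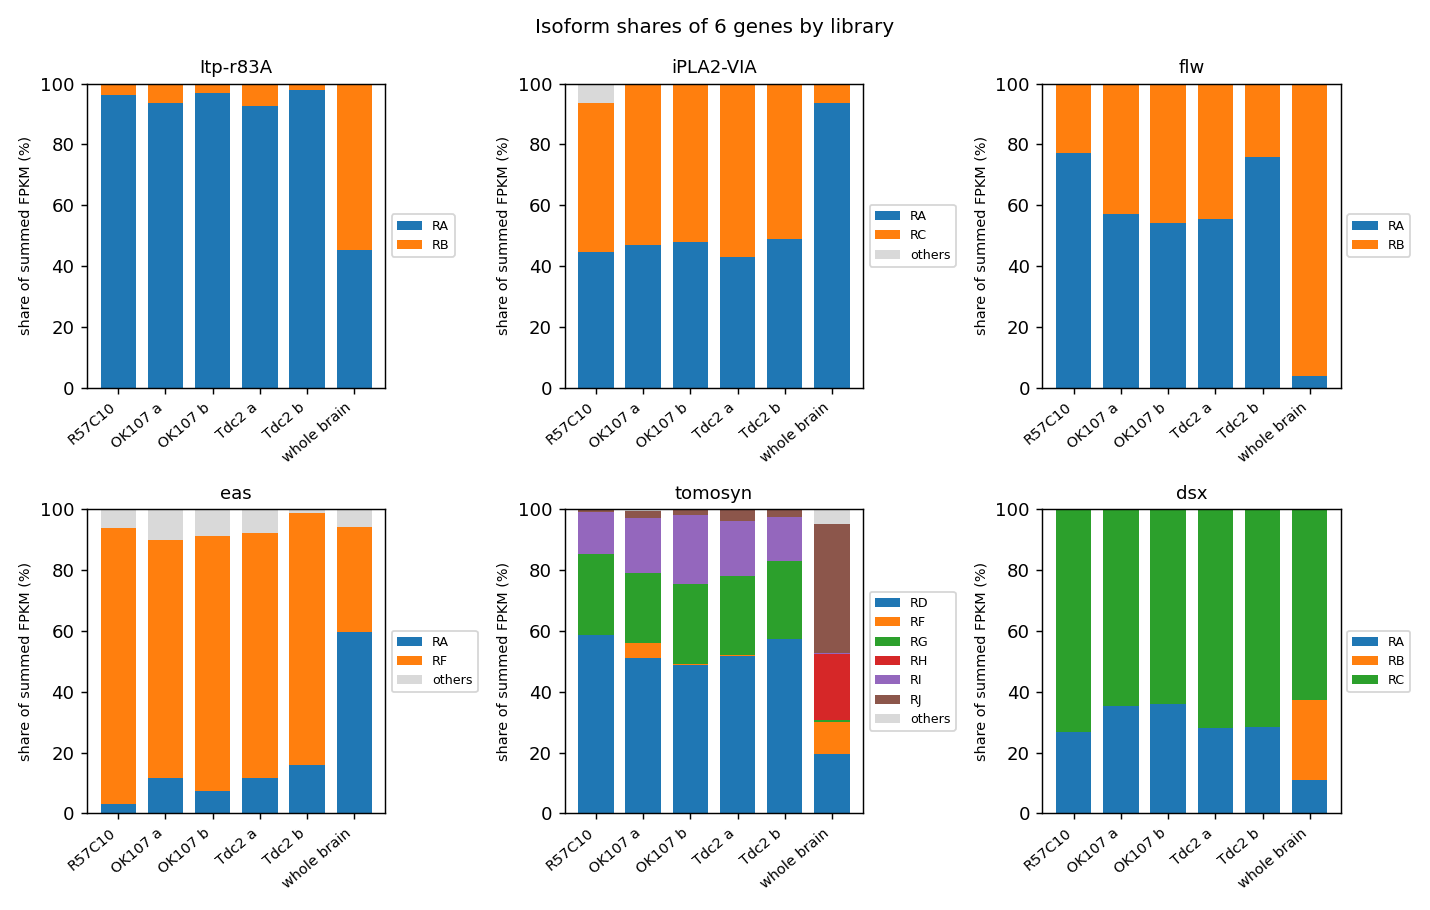
Stacked isoform shares (y axis, % of the gene's summed FPKM) in the 6 libraries for 6 called genes; isoforms under 10% in every library are grouped as others. In each panel the bar of whole brain differs from the 5 tagged bars, as in Itp-r83A, where RB takes 54.8% of it.

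At the synapse, tomosyn, a SNARE-binding brake on vesicle release, used 2 isoforms in whole brain that were minor in tagged nuclei. tomosyn-RJ made up 1.02% of the FPKM of the gene in R57C10, 2.11% and 1.85% in OK107 a and b, 3.77% and 2.60% in Tdc2 a and b, and 42.5% in whole brain. The share of tomosyn-RH was 0.0576% at most in tagged nuclei and 21.8% in whole brain, while tomosyn-RG had shares between 23.003% and 26.6% in the 5 tagged libraries and of 0.631% in whole brain. The gene passed with an adjusted p of 0.000545 (limma), while its summed level was higher in tagged nuclei, 155 to 342 FPKM against 122 FPKM. Caps, whose product primes dense-core vesicles, had Caps-RC at a share of 29.9% to 42.3% in tagged nuclei and 3.63% in whole brain (adjusted p = 0.0264, limma). These were 2 of 19 tested genes of vesicle release and the active zone, or 10.5%, near the 8.69% of all tested genes.

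Of 17 tested neurotransmitter receptor genes 3 passed (17.6%, beside 8.69% of all tested genes). In nAcRalpha-80B, a nicotinic acetylcholine receptor subunit, nAcRalpha-80B-RF had a share of 49.9% to 63.6% in tagged nuclei and 21.3% in whole brain. Its same-named transcript ends elsewhere and is shorter than nAcRalpha-80B-RD. The call rested on nAcRalpha-80B-RD, at 1.37% to 4.85% in tagged nuclei and 24.3% in whole brain (adjusted p = 0.0444, limma). In the beta subunit gene nAcRbeta-64B, nAcRbeta-64B-RA had shares between 48.3% and 58.1% in the 5 tagged libraries and of 82.9% in whole brain (adjusted p = 0.0234, limma). The other isoform, nAcRbeta-64B-RB, has 2 exons and a coding length of 192 bases against 1563, and it had a share of 41.9% to 51.7% in tagged nuclei and 17.1% in whole brain. In GluClalpha, the glutamate-gated chloride channel, the call rested on GluClalpha-RG, at 0% in the tagged libraries to 2 decimals and at 8.56% in whole brain (adjusted p = 0.000839, limma). Among 17 voltage-gated and related channels 1 passed: Ih, the hyperpolarization-activated channel, had Ih-RE at a share of 10.1% to 13.9% in tagged nuclei and 27.9% in whole brain. Its call rested on Ih-RJ, at 0% in tagged nuclei and 0.86% in whole brain (adjusted p = 0.0427, limma). The exchange partner Ih-RM, with an exon that spans an intron of Ih-RE, made up 16.1% to 23.6% in tagged nuclei, against 4.98% in whole brain.

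RNA-binding proteins and transcription factors had 7 called genes each, of 33 and 35 tested (21.2% and 20.0%, beside 8.69% of all tested genes). In Rm62, a DEAD-box RNA helicase, Rm62-RJ made up 65.7% of the FPKM of the gene in R57C10, 38.99% and 51.3% in OK107 a and b, 47.6% and 58.3% in Tdc2 a and b, and 8.43% in whole brain. The call rested on Rm62-RD, at 0% in tagged nuclei to 2 decimals and at 28.6% in whole brain (adjusted p = 0.00035, limma). In bru-2, of the Bruno family of splicing regulators, bru-2-RD had shares between 0% and 2.54% in the 5 tagged libraries and of 49.8% in whole brain (adjusted p = 0.018, limma), and bru-2-RA had a share of 29.4% to 54.1% in tagged nuclei and 14.8% in whole brain. In msi (Musashi) and Rbp6, both translational regulators of the Musashi type, the calls rested on isoforms with small shares. The share of msi-RC was 0% to 2 decimals in tagged nuclei and 2.28% in whole brain (adjusted p = 0.00678, limma), and that of Rbp6-RC 0% and 1.42% (adjusted p = 0.0176, limma). Among transcription factors, mamo-RG, of a BTB zinc-finger gene, made up 59.5% to 66.99% in tagged nuclei, against 90.8% in whole brain (adjusted p = 0.0232, limma). Its partner mamo-RC had shares between 20.7% and 26.02% in the 5 tagged libraries and of 3.11% in whole brain. In sbb (scribbler) the longer isoform sbb-RD had a share of 93.2% to 95.9% in tagged nuclei and 79.8% in whole brain. Here the call rested on sbb-RG, at 0.0431% to 0.0976% in tagged nuclei and 2.28% in whole brain (adjusted p = 0.0222, limma). In lola, a gene of 26 listed isoforms that guides axon growth, the call rested on lola-RH, which made up 0.16% to 0.364% in tagged nuclei, against 6.86% in whole brain (adjusted p = 0.0252, limma).

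The remaining genes among the 24 with the largest differences had diverse roles. In trol, which encodes the basement membrane proteoglycan perlecan, trol-RAD made up 1.11% of the FPKM of the gene in R57C10, 7.27% and 8.08% in OK107 a and b, 26.1% and 27.7% in Tdc2 a and b, and 84.3% in whole brain. Its summed level was 12.3 to 21.9 FPKM in tagged nuclei and 67.7 FPKM in whole brain, beside the higher repo level of whole brain given above; their part in this result was not tested. The most significant isoform was trol-RS, at 0% in tagged nuclei and 2.40% in whole brain (adjusted p = 0.0137, limma). In cu (curled), a relative of nocturnin, cu-RC made up 9.21% of the FPKM of the gene in R57C10, 8.21% and 11.4% in OK107 a and b, 18.9% and 16.4% in Tdc2 a and b, and 73.97% in whole brain. The isoform was minor in each tagged library and dominant in whole brain (adjusted p = 0.0149, limma). Its start lies elsewhere than that of cu-RD, which had shares between 42.8% and 55.99% in the 5 tagged libraries and of 11.8% in whole brain.

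Atf6-RB, of the endoplasmic reticulum stress factor ATF6, had a share of 69.3% to 88.003% in tagged nuclei and 20.6% in whole brain (adjusted p = 0.0344, limma). In the transcription factor ewg (erect wing), ewg-RC made up 0% to 14.2% in tagged nuclei, against 56.1% in whole brain. The most significant isoform was ewg-RA, at 43.7% to 54.8% in tagged nuclei and 13.9% in whole brain (adjusted p of the gene = 0.0447, limma). In the DnaJ-type co-chaperone gene mrj, mrj-RB had shares between 0% and 19.1% in the 5 tagged libraries and of 62.9% in whole brain. The call rested on mrj-RG, at 29.2% to 34.1% in tagged nuclei and 4.14% in whole brain (adjusted p = 0.0193, limma). All 3 exchanges ran between isoforms that differ in their start or in their coding part.

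HPS4-RB, of a lysosome-related organelle gene, had a share of 17.5% to 34.002% in tagged nuclei and 75.95% in whole brain (adjusted p = 0.0356, limma). In mun, known now as Gfrl, a relative of the GDNF-family receptors, mun-RF made up 4.39% to 19.03% in tagged nuclei, against 58.7% in whole brain. This isoform has 18 exons, and mun-RK, on which the call rested, has 7. The share of mun-RK was 52.5% to 58.5% in tagged nuclei and 22.2% in whole brain (adjusted p = 0.0431, limma). In Mical, an actin-oxidising enzyme of axon guidance, Mical-RE had shares between 2.05% and 8.49% in the 5 tagged libraries and of 50.3% in whole brain (adjusted p = 0.0379, limma). In CG4433, known now as PIG-L and acting in GPI-anchor synthesis, CG4433-RC had a share of 0% to 7.12% in tagged nuclei and 49.1% in whole brain. Its call rested on CG4433-RB, at 85.9% to 96.2% in tagged nuclei and 47.6% in whole brain (adjusted p = 0.0356, limma).

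A further 4 genes, listed under CG numbers, are given without a role. CG6454-RC made up 89.9% to 98.4% in tagged nuclei, against 40.3% in whole brain (adjusted p = 0.0183, limma). CG34354-RD had shares between 75.7% and 93.7% in the 5 tagged libraries and of 35.96% in whole brain (adjusted p = 0.0447, limma), and it shares its coding sequence with CG34354-RE, which ends elsewhere. CG42709-RB had a share of 50.5% to 69.05% in tagged nuclei and 10.5% in whole brain (adjusted p = 0.0306, limma), with the same coding length of 1374 bases in all 3 isoforms. CG32581-RA, of the gene now called sordd2, made up 54.1% to 69.6% in tagged nuclei, against 14.2% in whole brain (adjusted p = 0.0195, limma).

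Cell adhesion and axon guidance genes passed in 4 of 35 cases (11.4%, near the 8.69% of all tested genes): Sema-2a, Fas1, Dscam and if, the integrin alpha chain inflated. Their largest share differences stayed under 25 points, and in all 4 the call rested on an isoform at 0% in tagged nuclei to 2 decimals. The adjusted p-values were 0.00385, 0.0113, 0.0308 and 0.00149 (limma). Dscam has 74 listed isoforms here, a small part of those it can form, and the partition of short reads among them is uncertain. Of 15 tested glial genes 2 passed (13.3%, beside 8.69%). The blood-brain barrier receptor gene moody had moody-RC at a share of 2.74% to 5.21% in tagged nuclei and 38.6% in whole brain (adjusted p = 0.00551, limma), and the adhesion gene nrm had nrm-RA at a share of 0% to 0.351% in tagged nuclei and 11.03% in whole brain (adjusted p = 0.0113, limma).

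Among 8 tested photoreceptor genes 2 passed, a small list beside the 8.69% of all tested genes. The kinase-myosin ninaC makes a shorter and a longer protein, and ninaC-RA, the shorter, made up 40.2% of the FPKM of the gene in R57C10, 44.2% and 47.1% in OK107 a and b, 46.5% and 44.7% in Tdc2 a and b, and 69.1% in whole brain. The longer form was dominant in all tagged libraries and the shorter in whole brain (adjusted p = 0.0371, limma), with summed ninaC levels of 30.2 to 170 FPKM and 28.4 FPKM. In rdgB, a phosphatidylinositol transfer protein of photoreceptors, rdgB-RF was at 0% in tagged nuclei to 2 decimals and at 22.8% in whole brain (adjusted p = 0.00035, limma). Of 14 muscle genes up, which encodes troponin T, and Mhc, the muscle myosin heavy chain, passed (14.3%, beside 8.69%). The share of up-RB was 0% to 2 decimals in tagged nuclei and 26.9% in whole brain (adjusted p = 0.000389, limma), at summed up levels of only 3.35 to 20.6 FPKM and 5.98 FPKM. Mhc-RD was at 0% to 2 decimals in tagged nuclei and at 15.2% in whole brain (adjusted p = 0.000837, limma), at summed Mhc levels of 5.61 to 38.5 FPKM and 6.50 FPKM. Heads hold muscle and eyes that dissected brains lack, which cannot be told apart from the other differences.

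In the other lists 0 to 3 genes passed, against 8.69% of all tested genes. Of 28 tested genes of cAMP, kinase and memory signalling 3 did, or 10.7% (Itp-r83A, Pka-C1 and the junction scaffold pyd, with adjusted p = 0.0107 by limma). Of 22 cytoskeletal genes 1 did, betaTub56D, where betaTub56D-RA had shares between 29.4% and 64.4% in the 5 tagged libraries and of 7.68% in whole brain and the call rested on betaTub56D-RD, at 0% in tagged nuclei to 2 decimals and 2.36% in whole brain (adjusted p = 0.00574, limma). Of 20 pump and transporter genes 1 passed, Ndae1, a sodium-driven anion exchanger, where Ndae1-RA had a share of 46.9% to 60.7% in tagged nuclei and 23.98% in whole brain (adjusted p = 0.0402, limma). Of 10 clock genes 1 passed, the kinase nmo, by nmo-RG at 0% in tagged nuclei and 3.02% in whole brain (adjusted p = 0.00509, limma). Of 8 hemocyte, basement membrane and fat body genes 1 passed, trol. None of 39 tested ribosomal protein and translation factor genes passed by limma, 1 had an unadjusted p under 0.05, and diffSplice of limma called 1. Their median largest share difference was 6.21 points, against 13.1 points over all tested genes. No noncoding RNA gene met the rule.

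The sex-determination gene dsx passed through an isoform at or near 0 in every tagged library. The dsx gene makes a longer protein in males and a shorter one in females by choice of the last exons. The same-named dsx-RA has 549 codons, and dsx-RB and dsx-RC have 427 each. dsx-RA made up 26.9% of the FPKM of the gene in R57C10, 35.3% and 36.1% in OK107 a and b, 27.97% and 28.4% in Tdc2 a and b, and 11.01% in whole brain. The isoforms with 427 codons together made up 63.9% to 73.1% of dsx FPKM in tagged nuclei and 88.99% in whole brain, of which dsx-RB held 26.5% (adjusted p = 0.000234, limma). Summed dsx levels were low, 3.27 to 14.3 FPKM and 5.01 FPKM. In tra, named after its values were seen, tra-RA with 197 codons had a share of 0% to 7.07% in tagged nuclei and 26.6% in whole brain (adjusted p = 0.117, limma). Beside these, the male dosage compensation RNA roX1-RA was at 3.53 to 7.15 FPKM in tagged nuclei and 0.0122 FPKM in whole brain. The yolk protein Yp1 stood at 22.6 to 4104 FPKM in tagged nuclei and 2113 FPKM in whole brain. Their part in the dsx result was not tested.

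Genes with an isoform lacking a value were added in a further fit, with shares over the isoforms present in all libraries. Of 223 such genes 22 passed in that fit, beside 234 of all its 2605 genes (8.98%). Those given here were chosen after their values were seen. In SKIP, which interacts with the Shal potassium channel, SKIP-RB had a share of 68.9% to 75.0% in tagged nuclei and 7.14% in whole brain (adjusted p = 0.000202, limma). In Hk, the beta subunit of the Shaker potassium channel, Hk-RI had 4.31% to 7.51% and 35.9% (adjusted p = 0.0183, limma). In Src64B, a Src-family kinase, Src64B-RF had 66.9% to 71.6% and 32.3% (adjusted p = 0.0300, limma). The tagged libraries of all lines lay close together in these genes, and whole brain lay far outside them, which reflects the choice. Others of the 22 spread widely, as Fhos-RB at 23.5% to 68.7% in tagged nuclei and 6.89% in whole brain. For fws-RA, at 0% to 75.2% in tagged nuclei, whole brain lay inside the range, at 38.5%.

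Between the 2 narrow lines the count of calls depended on the test. In a fit of 4 group means, with 2 residual degrees of freedom, 4 of 2382 genes (0.168%) passed for OK107 against Tdc2, with 426 at an unadjusted p under 0.05, and none was called in both comparisons. The same fit called 71 genes for whole brain. For OK107 against Tdc2 diffSplice called 360, while limma called none with a minimum of 5 FPKM (375 at an unadjusted p under 0.05). That minimum removed the 4 called genes before testing, since each fell below it in some library. Leaving out 1 of the 4 libraries leaves 1 in its line, so those fits cannot back the 4 calls. The 4 were ida, an APC/C subunit gene, the homeotic gene pb, Sin and CG13667, named because they are so few. None reached 10 FPKM in every library, and no isoform of ida, Sin or CG13667 reached 5 FPKM in any library. Thus ida-RA was at 1.99 and 2.13 FPKM in OK107 a and b, and ida-RB at 1.23 and 1.10 FPKM in Tdc2 a and b. The share of ida-RA was 99.9% and 100.0% in OK107 a and b, 0.0802% and 0.0354% in Tdc2 a and b and 0.0372% in whole brain. The share of Sin-RA was 21.5% and 19.4% in OK107 a and b, and 100.0% in both Tdc2 libraries and in whole brain. For both genes R57C10 was on the side of OK107, with 99.9% of ida-RA and 28.5% of Sin-RA. A gene that did not pass is not shown to be alike in the 2 lines.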

How the data were processed

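Amplified cDNA of nuclear and brain RNA (NuGEN Ovation) was sequenced to a read length of 50 bases, per the labels. Per the submitters' processing notes, CASAVA 1.8, TopHat 1.4.0, Cuffdiff 1.3.0 and bedtools 2.15 were used with build dm3. The deposited FPKM values per isoform were estimated by the authors, and values whose Cuffdiff status was not OK are blank, per the file headers. Cuffdiff divides short reads that fit several isoforms by a model, so shares of similar isoforms are uncertain, and strand was not known.

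The labels list 7 samples while isoform values are given for 6 libraries, with a single R57C10 column for the pair of R57C10 samples; whether it holds one of them or both is not stated. Repeats in 4 FPKM columns were not used. Replicates may be technical, and p-values then measure only the spread between these libraries. The members and the 16 gene lists were chosen with earlier results of these data known.

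Shares were computed from the deposited FPKM and tested in R 4.3.3 with limma 3.58.1 (trend and robust) on arcsine square-root shares, for genes with a summed FPKM of at least 1 in every library and a value for every isoform. Isoforms with one share in all libraries (445) stayed out of the fit. The tagged arm had 4 residual degrees of freedom, and the lone whole-brain library was assumed to vary like the tagged ones. The spread of the tagged arm mixes differences between its 3 lines with those between libraries of a line. Isoform p-values were joined per gene by Simes' method and adjusted by Benjamini-Hochberg with a threshold of 0.05. On simulated data the method missed a large part of the changes, and the share of false calls was above the threshold. Genes were named as the 24 called genes with the largest share differences, at least 10 FPKM in every library and a whole-brain share outside the tagged range, plus up to 4 called members of each list with the smallest adjusted p. Exon structures came from Ensembl release 115 (BDGP6.54) by transcript name; models may have changed since, so they describe the later transcripts, and no coordinates or sequences are given. Tables were handled with pandas 2.3.3 in Python 3.11.15. Alternatives were a logit of the share, limma's diffSplice on log2(FPKM + 1) and log2(FPKM + 0.1), 4 group means, other filters, date tags and leaving out each tagged library. Gene-level values, read counts and the deposited log2 fold changes and q-values were not analysed here. The gene just outside the entry rule is not reported here.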

Additional observations from a re-analysis of the deposited data

Results flagged for a closer look

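Isoform use in 4 genes differed between OK107 and Tdc2 by a test of the difference itself (limma, 4 group means, 2 libraries a line), although both lines were compared with whole brain as one arm. The adjusted p was 0.0178 for ida, 0.0178 for CG13667, 0.0231 for Sin and 0.0427 for pb. In ida, CG13667 and Sin both libraries of a line lay together. In pb the OK107 pair had 100.0% and 99.5% of pb-RD, and Tdc2 a and b had 100.0% and 56.4% of pb-RB. With a minimum of 5 FPKM the 4 genes were not tested, since each fell below it in some library. No isoform of ida, Sin or CG13667 reached 5 FPKM in any library. Leaving out 1 library of either line leaves 1 library in that line, so those fits cannot back the 4 calls. These genes entered through lines where an isoform was high: pb-RD exceeded 1 FPKM only in OK107 a and b, at 1.14 and 1.52 FPKM.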

How the results depend on the processing

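With 207 genes called for tagged nuclei against whole brain, diffSplice on log2(FPKM + 1) called 344, sharing 128 with them, the fit of 4 group means 71, the fit without isoforms constant in tagged libraries 41, the fit of isoforms of at least 1 FPKM in 2 libraries 0 and the fit of the later date tag 0. The smallest adjusted p was 0.0605 and 0.295 in the last 2 (limma); the latter has fewer libraries. Leaving out each tagged library in turn gave 88 to 185 calls. The other settings gave 202 to 267 calls, and 96 genes passed in the main test, with the logit and with both diffSplice settings. For OK107 against Tdc2, with 4 calls, diffSplice called 360, and the cause of this change was not tested. A minimum of 5 FPKM left 0 calls, with 375 genes at an unadjusted p under 0.05, but it removed the 4 genes before testing. Fits without 1 library of a line hold 1 library there and cannot back the 4 calls. The count of 181 genes with another dominant isoform, 7.60% of 2382, moved between 151 and 248. The 151 were 7.74% of the 1952 genes with a minimum of 5 FPKM. The 248 were 10.4% of 2382 and came without Tdc2 a, where fewer tagged libraries had to agree. The mean difference of -8.23 points in intron-holding isoforms moved between -9.13 and -7.44 points, in settings chosen after seeing the data. Of the 51 named genes, 39 passed diffSplice on log2(FPKM + 1) and 33 on log2(FPKM + 0.1). With the logit 44 passed and with the 4 group means 17. Direction was not tested by these settings, since it was read from the shares themselves, which many settings leave unchanged. The 24 genes with the largest differences were chosen with whole brain outside the tagged range, so leaving out a tagged library could not reverse them. The single whole-brain library limits these calls, and an isoform found only there cannot meet a rule of 1 FPKM in 2 libraries. Under that rule 43 named genes kept their isoform with the largest share difference, and these lost the call as well. No paired analysis was possible because the columns carry no replicate numbers and whole brain has 1 library.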
